A study of Saccharomyces cerevisiae with 6 samples.

Results

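The 10 genes described here encode the enzymes, the transporter and the transcription factors with which budding yeast makes inositol and its major membrane phospholipids. They are INO1, INO2, INO4, OPI1, CHO1, CHO2, OPI3, ITR1, PSD1 and EKI1. The genes were listed by their standard names, matched to systematic identifiers through the RefSeq annotation, and all 10 were found among the 7127 identifiers of the count table and passed the filter that left 6220 genes for testing.

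Polyadenylated RNA was measured in 6 libraries of 1 haploid MATa strain of the S288c background, grown in YPD. Cells were taken at 0 min (mCh*, 3 libraries) and at 180 min (mCh-, 3 libraries) after 1 µM beta-estradiol, in independent experiments. Both groups are the same strain, and differ only as the hormone and time change it. The tagged septin allele, Shs1-loxPmCherry, is followed by the Cln2 terminator, the NatNT2 marker, and then loxP-GFP. The recombinase insertion, leu2::Cre-EBD78:LEU2, is the one that answers to the hormone by cutting out the mCherry part. At other sites the strain holds lys4::LacO:hphNT1 with his3::LacR-GFP:HIS3, and trp1::TetO:TRP1 with TetR-mCherry, in an ade2 background. Time in culture, time with the hormone and reporter allele all differ between the groups and cannot be told apart. Levels are given as CPM, counts scaled to library size with TMM composition factors, and are relative to the other transcripts of a library, so a change in RNA per cell and a change in the mix of cells cannot be told apart either.

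Depth lay between 25987900 and 34032212 counts per library. At an adjusted p below 0.05, 57.7% of all genes were called, 29.5% higher and 28.2% lower at 180 min, and the median log2 fold change was 0.02. The share of counts from ribosomal protein genes dropped between the times, from 33.1 ± 0.398% to 21.0 ± 0.150% (SD, n = 3). The 7 markers of MATa cells, such as the alpha-factor receptor gene STE2, summed to 2595 to 3065 CPM at 0 min and 1719 to 1988 CPM at 180 min, and the 4 markers of MATalpha cells to between 20.4 and 23.6 CPM at either time. Of the MATa markers, STE2, STE6, MFA1 and MFA2 were lower in every 180 min library, with the largest drops in MFA1 and MFA2. The times overlapped for BAR1, AGA2 and ASG7. Long genes stood higher than short ones, with median log2 fold changes of 0.28 for protein-coding genes over 3000 bases in span and -0.07 for those of up to 500 bases. The part of these shifts in the results below was not tested, except that values after removal of the trends with gene length and with GC content are given where they change the call of a gene named below or move a called value by over 1.5 times.

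Inositol is a building block of phosphatidylinositol, and yeast either makes it from glucose 6-phosphate or takes it up. Phosphatidylcholine is made by decarboxylating phosphatidylserine to phosphatidylethanolamine and methylating that, or from free choline and ethanolamine through CDP-activated intermediates. Many genes of both routes are switched on by a pair of helix-loop-helix factors, Ino2 and Ino4, which bind together to a promoter element called UASINO. The repressor Opi1 is held at the endoplasmic reticulum by phosphatidic acid and enters the nucleus when inositol is plentiful and phosphatidic acid is used up. YPD is a rich medium that contains inositol and choline, under which INO1 is known to be repressed.

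The promoter element is shown for INO1 and EKI1, which did not rise, and for CHO1, CHO2 and OPI3, which did. In each line, a stretch of 30 bases of the R64 genome (RefSeq) is written 5′ to 3′ on the strand of the gene, and capitals mark the match to CATGTGAAA or, where the match lies on the opposite strand, its reverse complement. A match needed all 6 bases of CATGTG and at most 1 mismatch in the last 3.
INO1 distal (chrX:136154-136183, minus strand): aatgcggCATGTGAAAagtattgtctattt
INO1 proximal (chrX:136095-136124, minus strand): aacttatttaATTCACATGgagcagagaaa
EKI1 (chrIV:751404-751433, plus strand): cactagacagCATGTGAAAacggtgatgat
CHO1 (chrV:208617-208646, minus strand): gcctttgagcTTTCACATGgacccatctaa
CHO2 distal (chrVII:802094-802123, plus strand): atctccgacaCATGTGAATttataagtagg
CHO2 proximal (chrVII:802163-802192, plus strand): attcccttctCATGTGAAGagttcacacca
OPI3 (chrX:573128-573157, minus strand): aatgagagtgCATGTGGAAagttgcaccgg

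In the window from 250 bases before to 50 bases after the start codon, 8 of the 10 members held a match, against 1.52% of 6002 nuclear protein-coding genes. Because the element was defined on promoters of this gene family, its presence there is a description. The exceptions were OPI1 and CHO2, and CHO2 had both of its matches farther out, at positions -336 and -267 from the start codon. With a window of 500 bases upstream, chosen after seeing the data, 9 members held a match, against 3.22% of genes. The matches printed lie between annotated genes, with the exception of that of OPI3, which lies at -212 inside the divergent gene MOG1, since only 159 bases separate the annotated starts of the 2 genes. CATGTG is a form of the general helix-loop-helix site CANNTG, and CATGTG alone, on either strand, was found in 6.93% of promoter windows and in 8 of the members. Among 4 promoter windows with 2 matches each, INO1 and PSD1 were the members, with log2 fold changes of opposite sign.

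**Figure D1:**
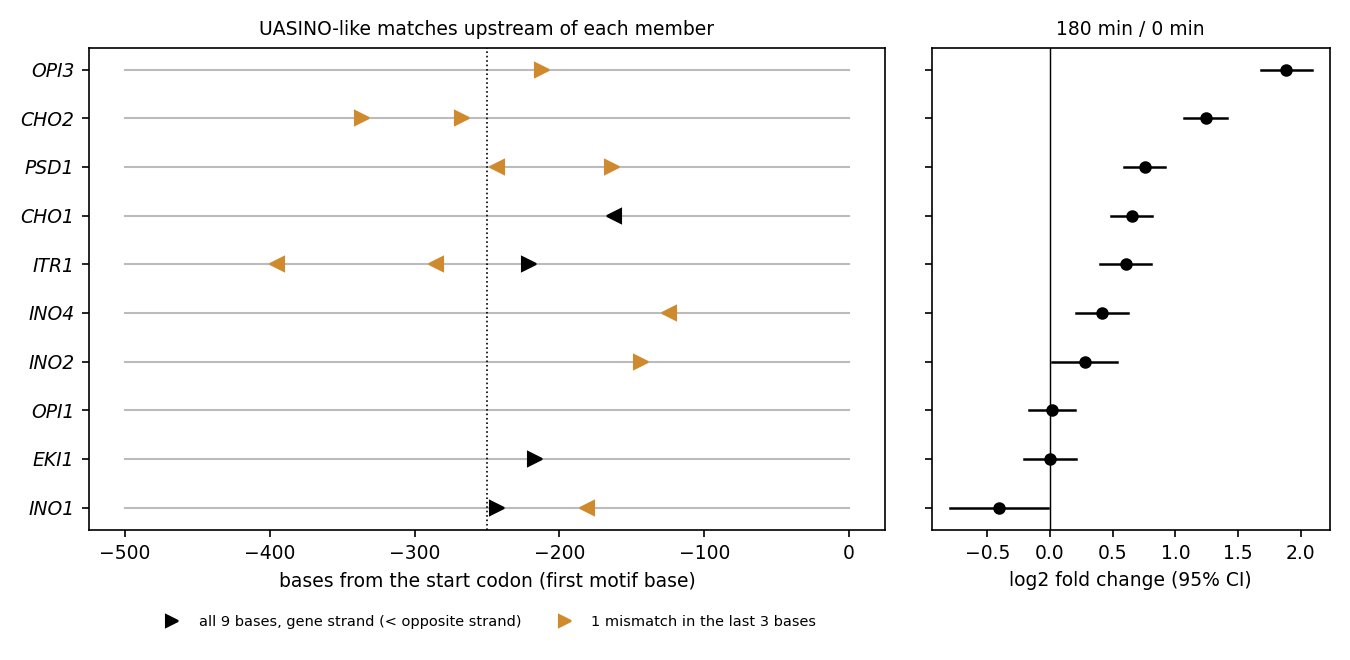
Left, position of each match to CATGTGAAA in the 500 bases before the start codon of each member, in bases, with the triangle pointing along the strand of the match, black for a full match and orange for 1 mismatch in the last 3 bases; the dotted line marks 250 bases. Right, log2 fold change from 0 to 180 min with its 95% confidence interval; the genes are ordered by this value, from OPI3 (1.88) to INO1 (-0.41), and the full matches lie upstream of ITR1, CHO1, EKI1 and INO1.

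Of the 10 members, 6 rose and 0 fell at 180 min, beside 29.5% of all genes called higher and 28.2% called lower, in the quasi-likelihood test of edgeR, Benjamini-Hochberg adjusted across all genes tested. The rises were those of OPI3, CHO2, PSD1, CHO1, ITR1 and INO4, and 2 of them, OPI3 and CHO2, were at least 2-fold, beside 4.6% of all genes. At an unadjusted p below 0.05 in edgeR, 7 members were higher and 1 was lower. The share of all genes at that looser cutoff is not given, here or for the lists below, so these counts lack a background. DESeq2 called 1 member lower, INO1, beside 1820 of all genes, and limma-voom called 0, beside 1762. Together the members made up 0.0936 ± 0.00314% of the counts of a library before the hormone and 0.189 ± 0.00138% at 180 min (SD, n = 3), shares that do not include the TMM factors. Their median log2 fold change was 0.51, against 0.02 over all genes. The 2 times did not overlap in 7 members, beside 63.4% of all genes, and in 6 of these every 180 min library was the higher, beside 32.7% of all genes.

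**Figure D2:**
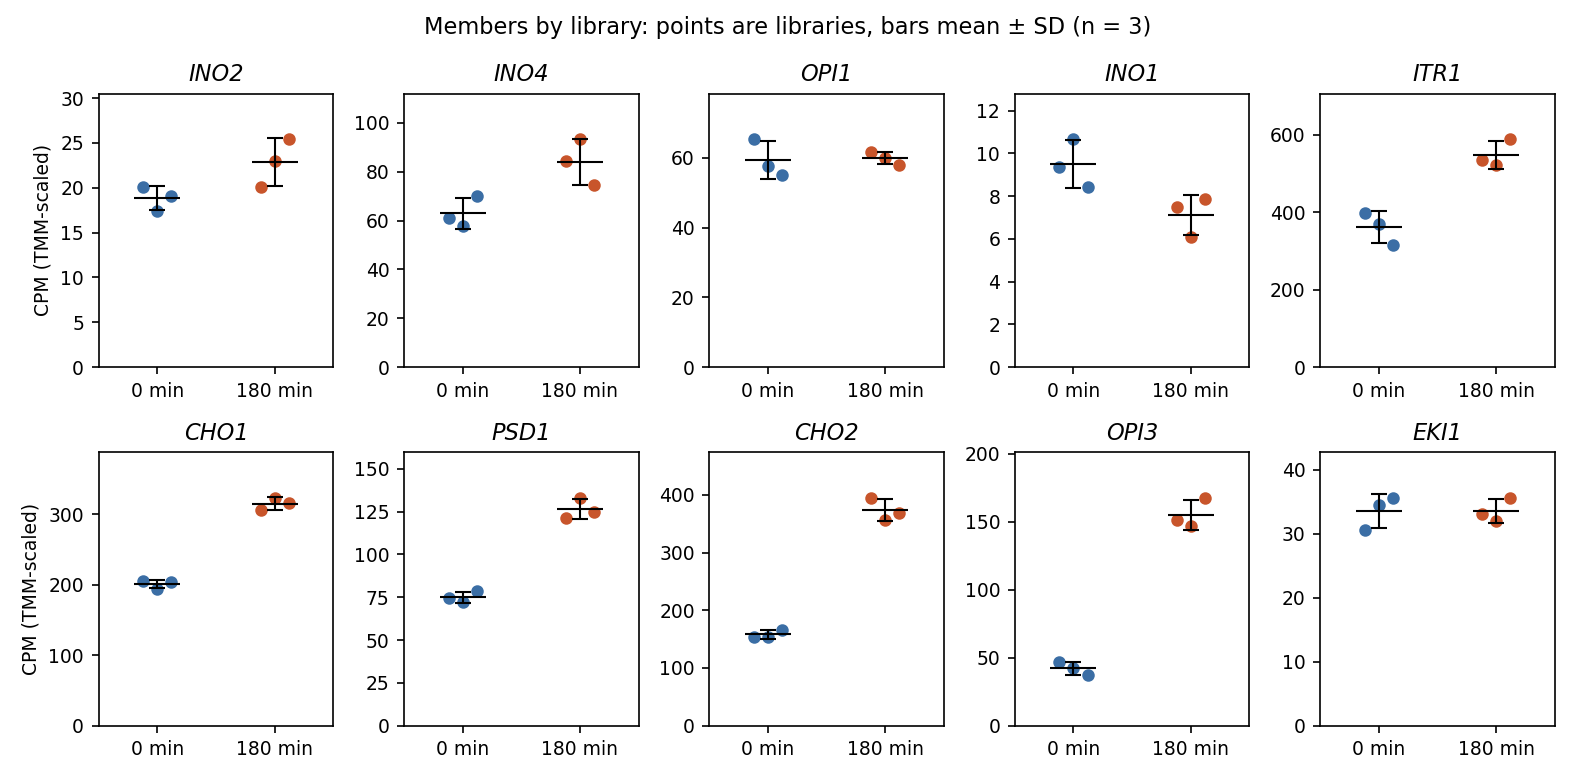
CPM of each member in each library (points), with the mean and SD of the 3 libraries of a time (bars); blue is 0 min and orange 180 min, and every vertical axis starts at 0. The points of the 2 times are separate for INO4, ITR1, CHO1, PSD1, CHO2 and OPI3, which are higher at 180 min, and for INO1, which is lower, and they overlap for INO2, OPI1 and EKI1.

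The genes of phosphatidylserine synthesis, its decarboxylation and the methylation to phosphatidylcholine, 4 members, all rose, and those of the methyltransferases had the largest values. OPI3 (YJR073C, chromosome X, 572315 to 572935, minus strand), the enzyme of the last methylation steps, had 46.6, 42.5 and 37.1 CPM in the 0 min libraries and 151, 147 and 168 CPM in the 180 min libraries. The lowest library at 180 min lay far above the highest at 0 min. The log2 fold change was 1.88 ± 0.10 (SE, adjusted p = 1.18e-09 in edgeR), a 3.69-fold rise, and it ranked 48 from the top among the 6220 genes tested.

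CHO2 (YGR157W, chromosome VII, 802440 to 805049, plus strand) encodes the methyltransferase that adds the first methyl group to phosphatidylethanolamine. It had 154, 154 and 166 CPM at 0 min and 395, 357 and 369 CPM at 180 min. The groups were again well separated. The log2 fold change was 1.24 ± 0.08 (SE, adjusted p = 1.08e-08 in edgeR), or 2.36-fold and rank 178 of all genes tested. CHO2 spans 2610 bases, and with the length and GC trend removed the value was 1.01, still called.

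PSD1 (YNL169C, chromosome XIV, 316169 to 317671, minus strand), the mitochondrial phosphatidylserine decarboxylase, went from 74.3, 72.0 and 78.4 CPM to 122, 133 and 125 CPM. Each library at 180 min exceeded each at 0 min. Its log2 fold change was 0.76 ± 0.08 (SE, adjusted p = 8.01e-07 in edgeR). CHO1 (YER026C, chromosome V, 207644 to 208474, minus strand), the phosphatidylserine synthase that joins serine to CDP-diacylglycerol, had 205, 194 and 203 CPM at 0 min and 306, 324 and 316 CPM at 180 min. The spread within each time was small beside the gap between the times. The rise was 0.65 ± 0.08 (SE, adjusted p = 3.14e-06 in edgeR) on the log2 scale.

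Of the inositol genes, that of the transporter rose, and that of the synthase, at a log2 fold change of -0.41, was not called. ITR1 (YDR497C, chromosome IV, 1443713 to 1445467, minus strand), the major inositol transporter of the plasma membrane, had 399, 369 and 317 CPM at 0 min and 536, 522 and 589 CPM at 180 min. The groups did not overlap, and replicate 3 was both the lowest library at 0 min and the highest at 180 min. Its log2 fold change was 0.60 ± 0.10 (SE, adjusted p = 6.71e-05 in edgeR).

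INO1 (YJL153C, chromosome X, 134332 to 135933, minus strand) encodes inositol-3-phosphate synthase, the rate-limiting enzyme of inositol synthesis. Its libraries had 240, 320 and 233 counts at 0 min and 258, 174 and 287 counts at 180 min, or 9.35, 10.7 and 8.43 CPM and 7.47, 6.07 and 7.86 CPM. All 3 libraries at 180 min lay below those at 0 min, by a narrow margin. The log2 fold change was -0.41 ± 0.18 (SE), with a 95% confidence interval of -0.80 to -0.02 and an adjusted p of 0.0688 in edgeR. INO1 was called lower by DESeq2 (adjusted p = 0.0485), with nuclear protein-coding genes alone (0.0459), with the length and GC trend removed (0.0499) and without mCh*_t0 replicate 3 (0.0481 in edgeR). Over the 6 analyses that each left out 1 library, the adjusted p reached 0.249 in edgeR. The confidence interval, which is not adjusted for the number of genes and rests on TMM factors, ended at -0.02. With library sizes only, without TMM factors, INO1 was at -0.16 and not called (adjusted p = 0.477 in edgeR). That scaling moved the median of all genes up by 0.25. Subtracting this shift only restores the value with TMM factors (-0.41), so it is no separate check.

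Among the transcription factors, INO4 rose and INO2 and OPI1 were not called. INO4 (YOL108C, chromosome XV, 111431 to 111886, minus strand), the DNA-binding partner of Ino2, went from 61.1, 57.8 and 70.2 CPM to 84.3, 93.4 and 74.7 CPM. The lowest 180 min library, replicate 3, was close to the highest 0 min library. INO4 rose by 0.42 ± 0.10 (SE, adjusted p = 0.00196 in edgeR) on the log2 scale.

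INO2 (YDR123C, chromosome IV, 698554 to 699468, minus strand) encodes the partner that carries the activation domains and whose own promoter holds the element. It had 20.1, 17.4 and 19.1 CPM at 0 min and 20.1, 23.0 and 25.4 CPM at 180 min. Replicate 1 of the 180 min group lay among the 0 min libraries. The log2 fold change was 0.28 ± 0.12 (SE, adjusted p = 0.0621 in edgeR). It was called higher without mCh-_t180 replicate 1 (0.36, adjusted p = 0.0268 in edgeR) and with the length and GC trend removed (0.30, adjusted p = 0.0464 in edgeR).

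OPI1 (YHL020C, chromosome VIII, 66242 to 67456, minus strand), the repressor, had 65.4, 57.7 and 55.0 CPM at 0 min and 61.6, 60.0 and 58.0 CPM at 180 min, with the second group inside the range of the first. Its log2 fold change was 0.01, with a 95% confidence interval of -0.17 to 0.20 and an adjusted p of 0.904 in edgeR. EKI1 (YDR147W, chromosome IV, 751631 to 753235, plus strand), the ethanolamine kinase that starts the CDP-ethanolamine route, likewise had overlapping groups, at 30.6, 34.5 and 35.7 CPM and then 33.1, 32.0 and 35.6 CPM. The value was 0.00 with a 95% confidence interval of -0.21 to 0.20 and an adjusted p of 0.983 in edgeR. With library sizes only, a scaling that moved the median of all genes up by 0.25, OPI1 (0.27), EKI1 (0.25) and INO2 (0.53) were called higher. Subtracting that shift only restores the values with TMM factors, so it is no separate check of these calls.

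Levels between the genes were compared as CPM per kilobase of coding sequence. At 0 min the order ran from CHO1 (241 ± 7.21) through ITR1 (206 ± 23.7), INO4 (138 ± 14.0), OPI3 (67.8 ± 7.70), CHO2 (60.6 ± 2.79), PSD1 (49.9 ± 2.17), OPI1 (48.9 ± 4.44), EKI1 (20.9 ± 1.64) and INO2 (20.6 ± 1.49) down to INO1 (5.92 ± 0.701 CPM per kilobase, SD, n = 3). The ranges of OPI3 and CHO2, of PSD1 and OPI1, and of EKI1 and INO2 overlapped, and the other neighbours in the order were separate. INO1 stood at percentile 6.88 of 5701 nuclear protein-coding genes at 0 min and at percentile 5.23 at 180 min. OPI3 moved from percentile 60.7 to 87.6, passing INO4, and at 250 ± 17.8 CPM per kilobase it stood next after CHO1 (379 ± 10.6) and ITR1 (313 ± 20.3). At 180 min INO2 (25.0 ± 2.93) and EKI1 (20.9 ± 1.15) were the only neighbours whose ranges overlapped. INO4 was several-fold more abundant than its partner INO2 at both times on this scale.

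**Figure D3:**
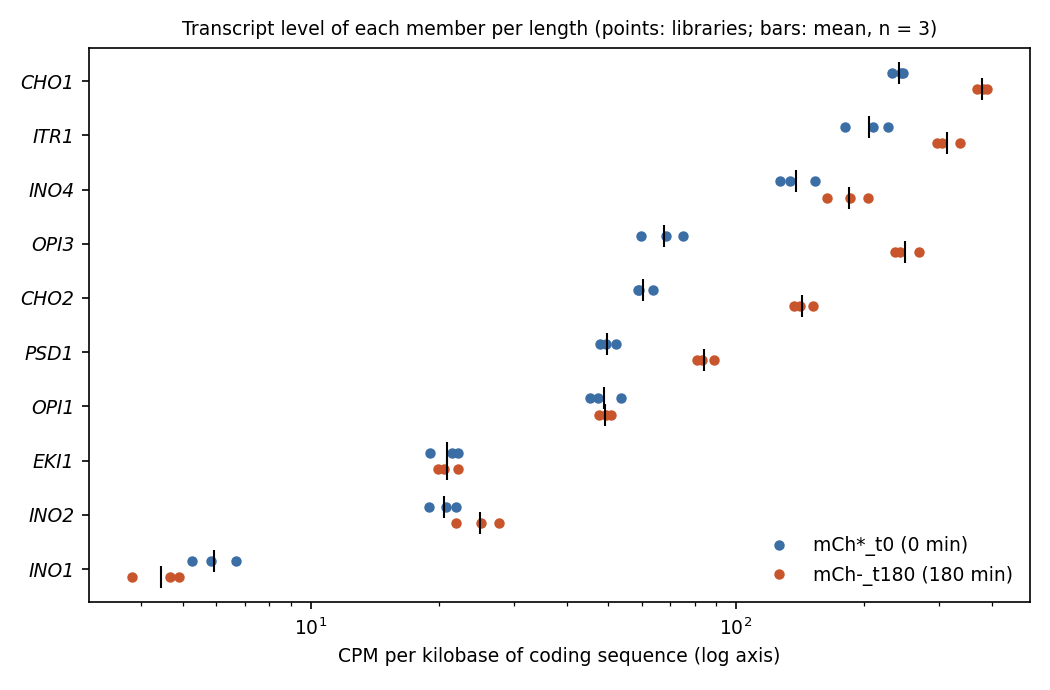
Level of each member in CPM per kilobase of coding sequence, on a log axis, for each library (points) with the mean of 3 libraries (bars); blue is 0 min and orange 180 min. CHO1 is highest and INO1 lowest at both times, and OPI3 moves the most, from 67.8 to 250 CPM per kilobase.

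Ratios of genes within a library do not depend on the scaling between libraries, and 8 pairs were compared. With 3 libraries against 3 an exact two-sided permutation test cannot go below 0.1, and the smallest adjusted value over the pairs was 0.133, so none could pass the threshold. For the methyltransferases, the log2 ratio CHO2/OPI3 per kilobase was -0.35, -0.22 and 0.09 at 0 min and -0.68, -0.79 and -0.93 at 180 min (difference -0.65, exact permutation p = 0.1). The groups did not overlap. The log2 ratio of ITR1 to ITR2, the minor inositol transporter, went from 0.77 ± 0.21 to 1.46 ± 0.04 (SD, n = 3, exact permutation p = 0.1), while ITR2 itself was not called (-0.08).

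CHO1 and PIS1, phosphatidylinositol synthase, use the same substrate, CDP-diacylglycerol. Their log2 ratio per kilobase went from -0.81 ± 0.08 to -0.13 ± 0.09 (SD, n = 3, exact permutation p = 0.1), with PIS1 at a log2 fold change of -0.02 and not called. With library sizes only, which moved the median of all genes up by 0.25, PIS1 was called higher at 0.23. EKI1 and its paralog CKI1, the choline kinase, stood at a log2 ratio of 0.16 ± 0.16 at 0 min and -0.70 ± 0.14 at 180 min (SD, n = 3, exact permutation p = 0.1), so that CKI1 was the more abundant of the pair in every 180 min library. For INO1/ITR1, synthesis against uptake, the log2 ratio went from -5.12 to -6.14, a difference of -1.02 (exact permutation p = 0.1). PSD1/PSD2 differed by 0.23, with 0.50 in both the highest 0 min library and the lowest 180 min library (exact permutation p = 0.1). The ratios INO2/INO4 (difference -0.14, exact permutation p = 0.5) and OPI1/INO2 (-0.26, exact permutation p = 0.2) overlapped between the times.

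**Figure D4:**
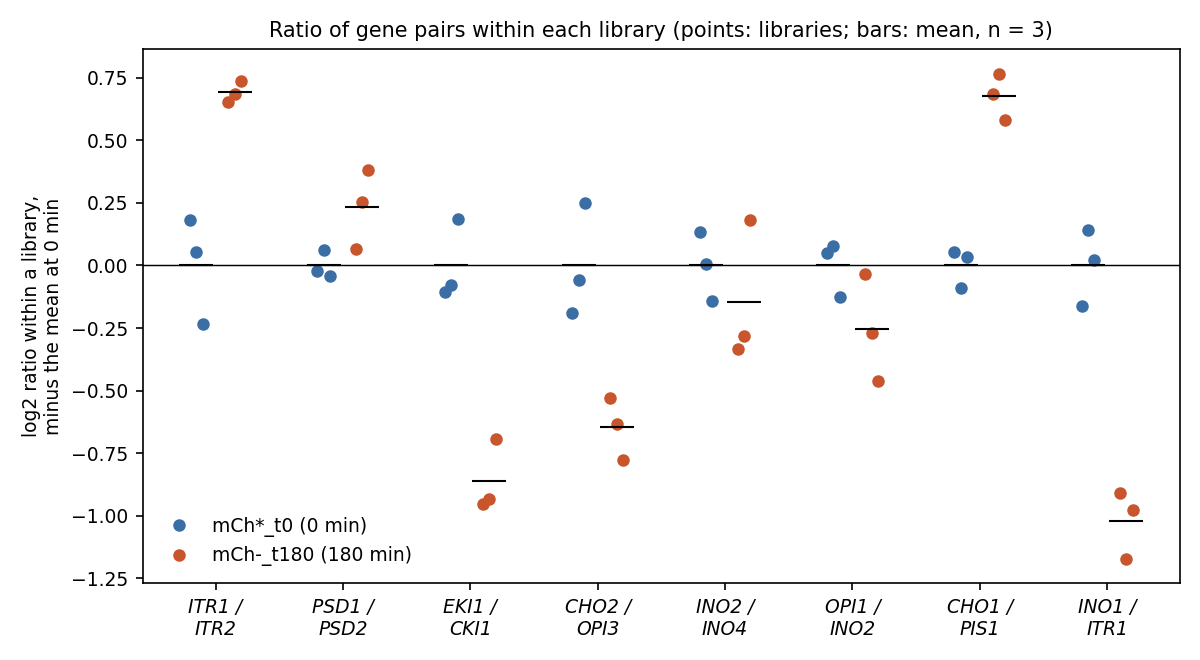
Log2 ratio of 2 genes per kilobase within each library (points), with the mean of the pair at 0 min subtracted and the group means as bars; blue is 0 min and orange 180 min. The largest shifts are those of INO1/ITR1 (-1.02) and EKI1/CKI1 (-0.86), and the 2 times overlap for INO2/INO4 and OPI1/INO2.

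Other genes of phospholipid metabolism were read from 7 lists holding 46 genes that are no members. Of these 46, 27 rose and 4 fell, with a median log2 fold change of 0.34, beside 29.5% higher and 28.2% lower over all genes. With the length and GC trend removed, 24 of them were called higher and 5 lower. In the list for the CDP-choline and CDP-ethanolamine route, 6 of 7 genes rose and 1 fell. EKI1 (0.00, not called), which starts the ethanolamine branch, is a member and was not counted there. CPT1, the cholinephosphotransferase that ends the choline branch, went from 94.8 to 176 CPM, a log2 fold change of 0.89 ± 0.08 (SE). CKI1 rose from 32.8 to 59.3 CPM (0.86 ± 0.09 SE), and EPT1, the ethanolaminephosphotransferase, by 0.68 ± 0.09 (SE).

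The gene of that route that fell was ECT1, whose product makes CDP-ethanolamine, at -0.24 ± 0.09 (SE, adjusted p = 0.0257 in edgeR). Leaving out either mCh*_t0 replicate 1, its replicate 2 or mCh-_t180 replicate 2 ended the call (adjusted p up to 0.161 in edgeR), and with library sizes only it was 0.01. PCT1, whose product makes CDP-choline, named after its value was seen, was barely called (0.21, adjusted p = 0.0395 in edgeR). Its call ended on leaving out mCh*_t0 replicate 2 or either of replicates 2 and 3 of mCh-_t180, under the other scalings except library sizes only, in DESeq2, with the replicate block and with the length and GC trend removed (0.19). The kinase and final transferase genes of the choline branch thus had larger fold changes than the gene of its middle step, a difference that was not tested.

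The list for phosphatidic acid and CDP-diacylglycerol, the shared precursors, holds genes that make them and genes that serve the removal of phosphatidic acid. Of its 13 genes, 8 were higher and 0 lower, with a median of 0.36. In edgeR 2 were lower at an unadjusted p below 0.05, and DESeq2 and limma-voom each called 1 lower. ALE1, a lysophospholipid acyltransferase, went from 166 to 315 CPM, a log2 fold change of 0.93 ± 0.08 (SE). PAH1, the phosphatidate phosphatase that draws phosphatidic acid toward triacylglycerol, rose by 0.81 ± 0.08 (SE), and NEM1, the catalytic subunit of the phosphatase that activates Pah1, by 0.51 ± 0.09 (SE). SPO7, the regulatory subunit of the same phosphatase, was at -0.21 and DGK1, the diacylglycerol kinase that opposes Pah1, at -0.19, with adjusted p of 0.0614 and 0.0520 in edgeR. Both were named after their values were seen, and both were called lower under several other scalings and filters. With the length and GC trend removed DGK1 was at -0.10, and with library sizes only SPO7 was at 0.05 and DGK1 at 0.06, none of them called.

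In phosphatidylserine decarboxylation outside mitochondria and in cardiolipin synthesis, 3 of 6 genes rose and 1 fell, with a median of 0.34; with the length and GC trend removed CRD1, named after its value was seen, was also called higher (0.34, from 0.24). PSD2, the decarboxylase of the Golgi and endosomes, rose from 126 to 181 CPM (0.52 ± 0.09 SE, or 0.31 after removal of the length and GC trend, also called), and TAZ1, the cardiolipin remodelling enzyme tafazzin, rose by 0.37 ± 0.08 (SE). GEP4, the mitochondrial phosphatidylglycerophosphate phosphatase, went down from 39.4 ± 4.94 to 23.2 ± 3.25 CPM (SD, n = 3), a log2 fold change of -0.76. In inositol supply and use 1 of 5 genes rose and 1 fell, and they are the 2 inositol monophosphatases. INM2 rose by 0.41 ± 0.09 (SE), whereas INM1 fell from 75.6 ± 4.83 to 53.7 ± 4.88 CPM (SD, n = 3), at -0.49.

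Genes of phospholipid breakdown were 4 higher and 1 lower of 7, with a median of 0.29. PLB1, a phospholipase B of the cell surface, rose by 0.91 ± 0.09 (SE), SPO14, phospholipase D, by 0.69 ± 0.09 (SE) and PLC1, phospholipase C, by 0.53 ± 0.09 (SE). With the length and GC trend removed, SPO14 was at 0.43 and PLC1 at 0.32, both still called, and the list had 3 genes higher and 2 lower. The genes whose calls changed, named after their values were seen, were GDE1 (from 0.29 to 0.07, no longer called) and NTE1 (from -0.12 to -0.27, called lower). PLB3, another phospholipase B, fell by 0.35 on the log2 scale (adjusted p = 0.0139 in edgeR), with overlapping groups. The call ended on leaving out mCh*_t0 replicate 3 or either of replicates 1 and 2 of mCh-_t180 (adjusted p up to 0.0792 in edgeR), and with library sizes only.

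Of 5 sensing and chromatin regulators of the inositol response, 2 were called higher and 0 lower, with a median of 0.01. None was lower at an unadjusted p below 0.05 in edgeR, and DESeq2 and limma-voom also called 0 lower. IRE1, the sensor of the unfolded protein response that is needed for growth without inositol, was at 0.38 ± 0.08 (SE) and SIN3, a corepressor, at 0.37 ± 0.09 (SE). IRE1 and SIN3 are long genes, and with the length and GC trend removed, at 0.15 and 0.21, neither was called.

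All 8 further genes listed as known targets of Ino2 and Ino4 rose, with a median of 0.59, beside 29.5% of all genes called higher. In edgeR 0 of these 8 were lower at an unadjusted p below 0.05, and DESeq2 and limma-voom called 0 lower. The list is not a full set of targets and was written with earlier results of these data known, so the count is a description. This list shares 5 genes with the precursor and choline lists and adds the fatty acid synthesis genes, which were named after their values were seen. FAS1, a fatty acid synthase subunit, went from 483 to 760 CPM (0.65 ± 0.09 SE), ACC1, acetyl-CoA carboxylase, from 521 to 754 CPM (0.53 ± 0.08 SE) and FAS2, the other synthase subunit, from 630 to 826 CPM (0.39 ± 0.08 SE). Of the 46 listed genes, 4 held a match to the element in the promoter window, CDS1, CKI1, CPT1 and FAS2, and all 4 rose. The targets of this list without a match, such as EPT1, FAS1 and ACC1, rose as well. INO1, with 2 matches, was the target with the lowest log2 fold change among the members.

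**Figure D5:**
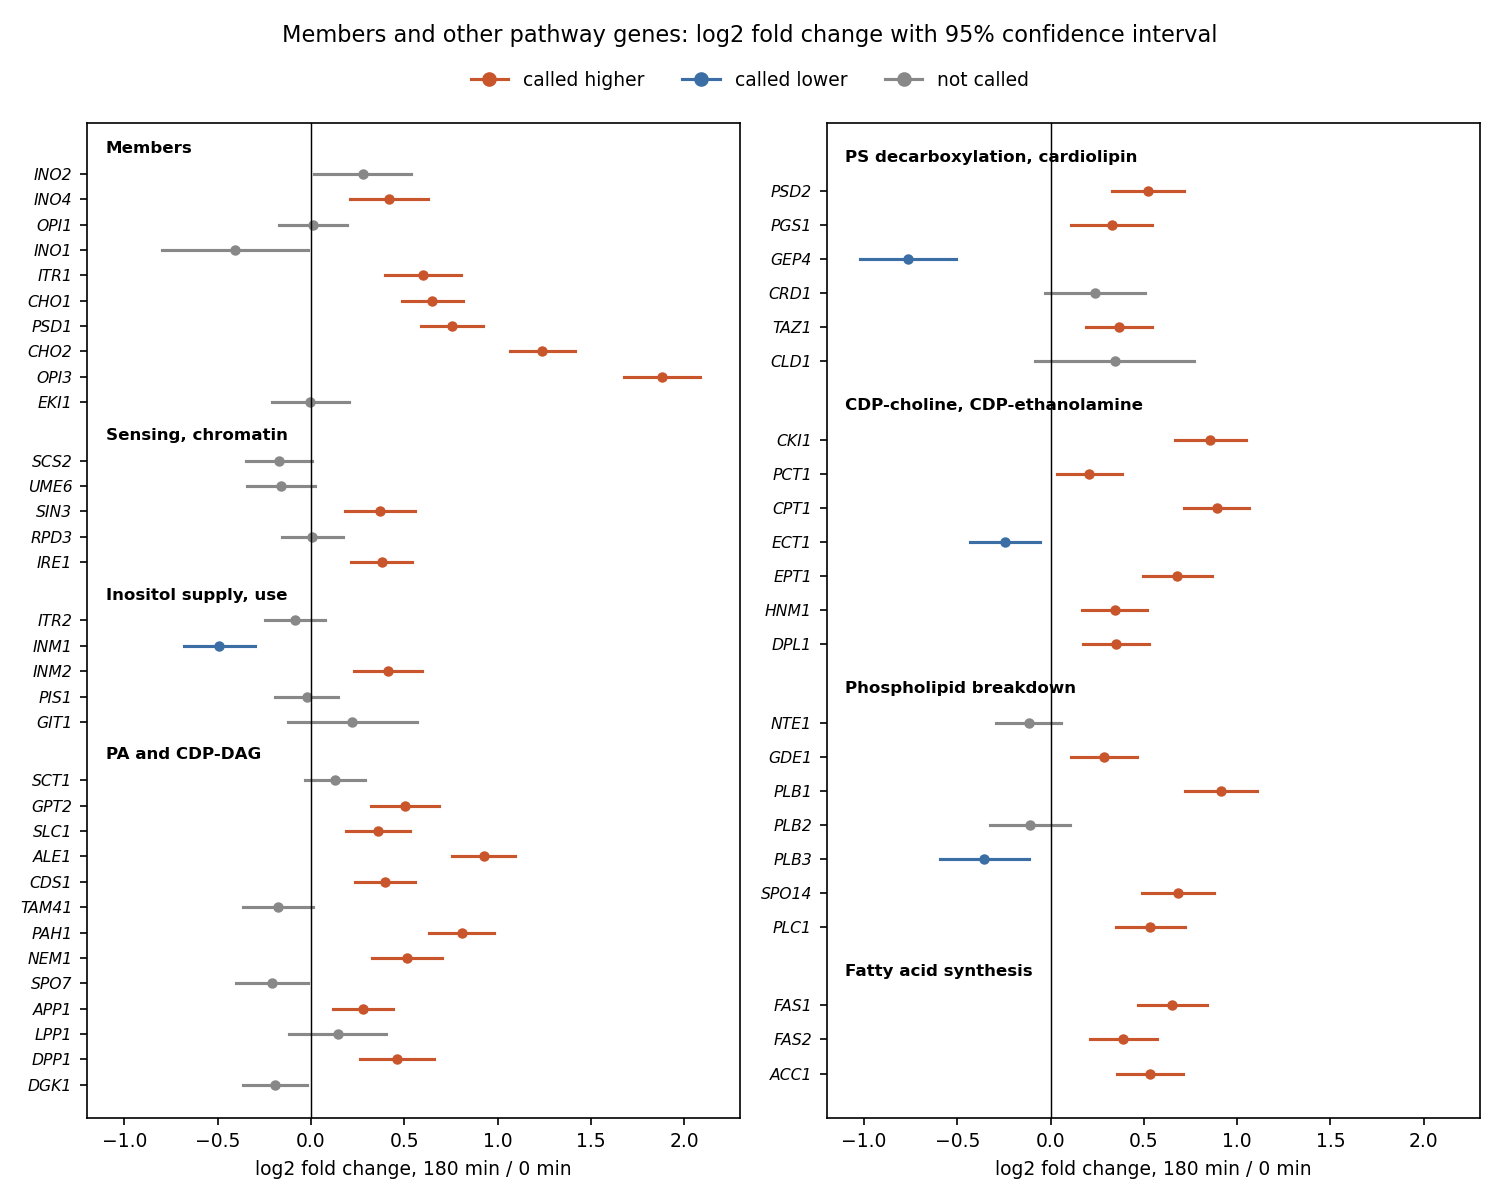
Log2 fold change from 0 to 180 min (horizontal axis) with its 95% confidence interval for the 10 members and the 46 other genes of the lists, each gene once, orange where called higher, blue where called lower and grey where not called. OPI3 (1.88) and CHO2 (1.24) are the members with the largest values, and GEP4 (-0.76) has the lowest value of all genes drawn. PA is phosphatidic acid, CDP-DAG is CDP-diacylglycerol and PS is phosphatidylserine.

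The genes that are no members and whose profile over the 6 libraries was nearest to that of INO1, by Euclidean distance of mean-centred log2 CPM among genes averaging 50 counts or more, were RPB3 (distance 0.144), SEC53 (0.153), POC4 (0.163), PLM2 (0.166) and PHA2 (0.178). RPB3 encodes an RNA polymerase II subunit and SEC53 phosphomannomutase. All 5 were called lower, with log2 fold changes of -0.31 (POC4) to -0.41 (PLM2). Because they were picked for closeness to INO1 over these same libraries, their direction follows from the choice and is a description only. The calls of POC4, PLM2 and PHA2 were each lost without at least 1 single library, mCh*_t0 replicate 2 and mCh-_t180 replicate 2 for all of these, also mCh-_t180 replicate 1 for POC4, and any library other than mCh*_t0 replicate 1 for PLM2. With the length and GC trend removed the calls of POC4 (-0.22), PLM2 (-0.40) and PHA2 (-0.26) were lost as well, and that of PLM2 also in limma-voom and with the replicate block. With library sizes only none of the 5 was called.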

How the data were processed

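The authors deposited raw counts, whole-number read counts per gene for 6 polyA-selected stranded libraries, with no normalization. The submitters' processing notes name HTSeq 0.6.1p1, STAR 2.5.3a, cutadapt 1.10, bcl2fastq 2.20.0.422 and, as genome builds, sacCer3 and R64. Whether counting used the strand is not given in the sources used here. None of the 10 genes overlaps another gene of the RefSeq annotation, but 1039 identifiers, holding 0.469% of counts, had no match there and could not be placed.

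The gene tests used edgeR 4.0.16 under R 4.3.3 (TMM factors, default filter by group, quasi-likelihood F test, two-sided, Benjamini-Hochberg over 6220 genes), and genes with an adjusted p below 0.05 were called. limma 3.58.1 and DESeq2 1.42.0 served as alternatives, besides other scalings, filters, a replicate block and each library left out. The fit was tested on simulated data. CPM, standard errors and confidence intervals came from the same fit. Coordinates and promoter sequence are from RefSeq R64, the build the notes name. The genes and lists were chosen with earlier results of these data known. Named from each list were the called genes with the largest change, up to 3, any gene called against the majority, the partner genes of the ratios and the 5 nearest profiles to INO1; other names are marked. Figures were drawn with matplotlib 3.10.9.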

Additional observations from a re-analysis of the deposited data

How the results depend on the processing

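The rises of OPI3, CHO2, PSD1, CHO1, ITR1 and INO4 were called under the other scalings, filters, tests, the replicate block and every single left-out library, with the exception that a test against a 1.5-fold change called 3 members higher and not INO4 (0.42), ITR1 (0.60) or CHO1 (0.65). That test, which by construction passes fewer genes, called 5 higher and 0 lower of the 46 listed genes, and 420 higher and 485 lower of all genes. With library sizes only, 2996 genes were higher and 969 lower (75.6% of calls higher in place of 51.1%), and 2 listed genes were lower. INO2 (0.53), OPI1 (0.27) and EKI1 (0.25, from 0.00) were called higher. Among the listed genes that changed sign were PIS1 (0.23), ECT1 (0.0098), ITR2 (0.17, from -0.08), NTE1 (0.14, from -0.12), SPO7 (0.05, from -0.21) and DGK1 (0.06, from -0.19). INO1 was called lower by DESeq2 (-0.42), with the length and GC trend removed (-0.45) and with nuclear protein-coding genes alone (-0.42), so that 1 member was lower in each, and INO2 was called higher with the trend removed (0.30). Leaving out single libraries gave 0 to 1 members lower, 2 to 6 listed genes lower, INO2 between 0.18 and 0.36 and INO1 between -0.49 and -0.31. At an adjusted p below 0.01, 2 listed genes were lower in place of 4. The cause was not tested where none is given. Deviations from the group means of same-numbered libraries correlated at -0.22 to 0.01 across genes, and 0 of 6 libraries correlated best with their own number. These values show no pairing by replicate number, but with so few libraries they cannot exclude one. With the replicate block 6 members were higher, and 1727 genes were higher and 1663 lower, against 1833 and 1754 without it; with the block and the trend removed 6 members were higher. INO1, at 174 to 320 counts per library, had the fewest counts and the largest standard error (0.18) of the members. How much of that error comes from counting was not tested.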

Other observations

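Besides the members, 83 nuclear protein-coding genes held a match to CATGTGAAA in the promoter window under the same rule, among them CDS1, CKI1, CPT1 and FAS2, which were described above. Of the 79 that were tested, 35 were called higher and 16 lower at 180 min by edgeR, with a median log2 fold change of 0.20, beside 29.5% of all genes called higher and 28.2% called lower. The promoter windows with 2 matches that belong to no member were those of UBX6 (0.84, called higher) and EOS1 (-0.29, called lower), named after their values were seen.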
